A study of Mus with 16 samples.

Results

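Cytoplasmic ribosomal protein genes encode the protein parts of the ribosome that translates messages of the nuclear genome. They were taken from the deposited count table as the protein-coding genes whose symbols are Rpl or Rps with a number, together with Rpsa, Rplp0, Rplp1 and Rplp2, leaving out the Rps6k kinases and pseudogenes. This gave 81 genes of 38087, of which 79 were among the 19340 genes with enough counts to be tested. Of the 81, 32 belong to the small subunit, 46 to the large subunit and 3 to the stalk of the large subunit. Rps21, a protein of the small subunit, was singled out with its values known and was set against the others.

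A ribosome holds a single copy of nearly every one of these proteins beside its ribosomal RNA, so their genes are usually expressed at high and similar rates. The small subunit reads the message, the large subunit joins the amino acids, and the stalk recruits the factors that drive translation. Messages of ribosomal proteins are short and abundant, and their translation rises with growth signals that pass through mTOR. Several free ribosomal proteins, Rpl11 among them, bind the p53 regulator Mdm2 when ribosome assembly fails.

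RNA was sequenced from 16 tumours of B16, a transplantable melanoma line, grown under the skin of C57BL/6 mice, in 4 groups of 4 animals. The groups were B cell-depleted mice given an antibody against PD-L1, a ligand that restrains T cells, wild-type (WT) mice given that antibody, B cell-depleted mice left untreated, and WT mice left untreated. The implanted cells had 7 days to grow, the antibody came in 3 doses that were 3 days apart, and tumours were collected 3 days after dosing ended. Columns of the table call the depleted mice BKO, but neither the method of B cell removal nor the age of the mice is given in the sources used here. The study asked what B cells contribute to the response to PD-L1 blockade, and the libraries are named here by group and by the letter of their column.

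Depth ran from 12.5 to 35.6 M counts per library, lowest in library A of the depleted treated group. The 7 melanocyte markers fixed for the check (Mlana, Tyr, Dct, Pmel, Tyrp1, Sox10 and Mitf) were read in all groups and summed to 17780 to 22490 CPM, a unit of counts divided by the TMM-scaled depth of the library, in each library, as the tissue label has it. The 6 T cell markers summed to at most 5.37 CPM and the 6 B cell markers to at most 5.59 CPM. Igkc, the kappa light chain gene of B cells, was at 0 in the libraries of both depleted groups. It was the only 1 of the 6 B cell markers at 0 there. With treatment the B cell sums overlapped, at 0.711 to 1.76 CPM in depleted and 1.3 to 2.235 CPM in WT libraries. They also overlapped without treatment, at 0.957 to 1.93 CPM in depleted and 1.265 to 5.59 CPM in WT libraries. Correlations of log2 CPM between libraries lay between 0.931 and 0.990. Bulk tumour RNA was measured, so fewer cells of a type and less RNA per cell cannot be told apart.

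How reads were counted is not given in the sources used here, but the listed length of each gene was its whole span, introns included. Wdr38, whose span holds Rpl35 on the other strand, had 54773 counts against 54609 for Rpl35. Counts were therefore read as covering the whole span on either strand, which was not tested. Of the 81 genes, 43 overlapped another gene and 30 held small nucleolar RNA genes in their introns, but only 8 shared 20% or more of their span. Among those 8, Rps28 shared 70.3% with Kank3, Rpl18 shared 47.3% with Sphk2, and Rpl35a lay wholly inside Gm17106, all on the other strand. Rpl35 lay wholly inside Wdr38, and Rpl23a shared 36.9% with Tlcd1 and Rps10 20.7% with Gm15420, also on the other strand. On the same strand, Rpl13 lay wholly inside Gm20388 and Rpl13a shared 47.3% with Flt3l. The counts of these 8 cannot be assigned to them alone. A further 219 genes of the table are named as ribosomal protein pseudogenes. These took between 1.18% and 2.02% of the counts of a library, close to the share of the 81 genes themselves, and how a read that matches both a gene and its copies was placed is not given in the sources used here.

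Together the 81 genes took 2.02 ± 0.317% of all counts in depleted treated tumours, against 1.58 ± 0.289% in WT treated tumours, and 1.95 ± 0.191% in depleted untreated tumours, against 1.99 ± 0.0722% in WT untreated tumours (SD, n = 4 each). The share was 2.48%, 1.77%, 1.84% and 2.00% in depleted treated libraries A to D, against 1.70%, 1.78%, 1.70% and 1.15% in WT treated libraries A to D. It was 1.80%, 1.95%, 1.84% and 2.22% in depleted untreated libraries A to D, against 2.07%, 1.97%, 2.03% and 1.90% in WT untreated libraries A to D. The spread of each group except WT untreated was set mainly by 1 library, and the 4 WT treated libraries were all below the lowest of the other 12 save for WT treated library B, which lay just above depleted treated library B. No test was made of this sum.

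**Figure D1:**
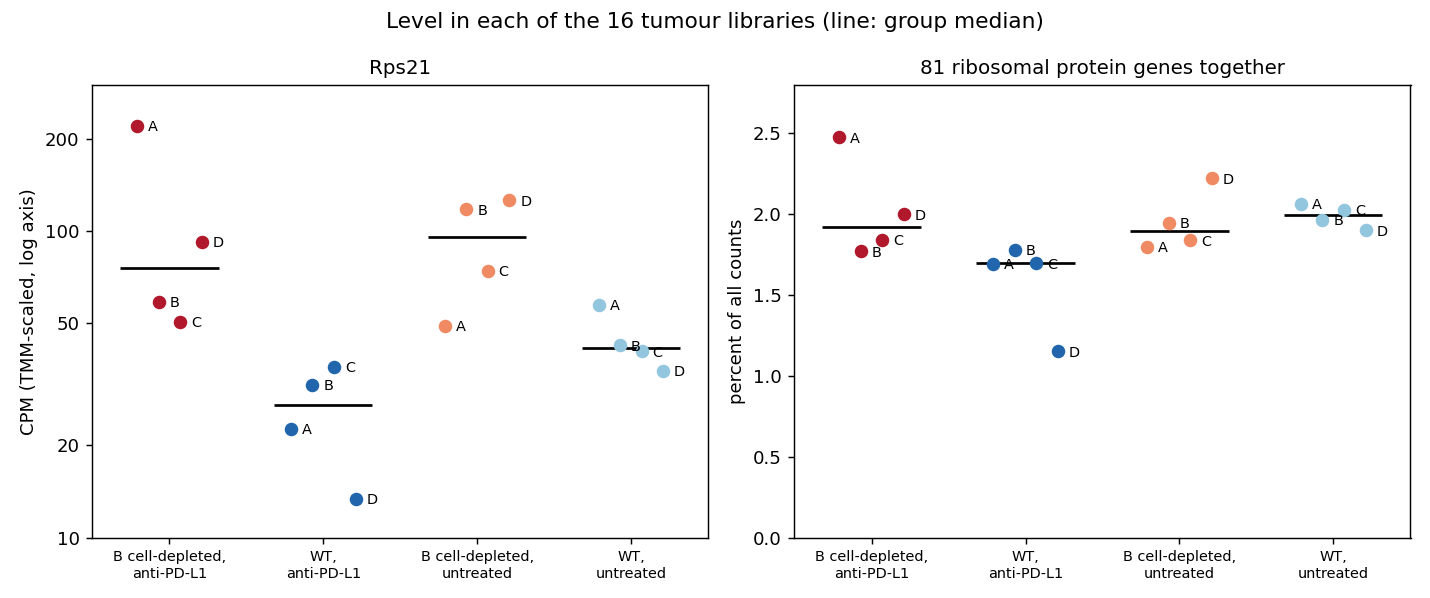
Rps21 in TMM-scaled CPM on a log axis (left) and the percent of all counts in the 81 ribosomal protein genes (right). Each point is 1 tumour library, named by its letter, in 4 groups of 4, and each line is a group median. Rps21 lay between 50.7 and 221 CPM in depleted treated tumours and between 13.4 and 36.1 CPM in WT treated tumours, and the share was lowest in WT treated library D, at 1.15%.

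Single libraries stood apart across many of these genes at once. Depleted treated library A was the highest of all 16 libraries for 42 of the 79 tested genes and the highest of its group for 64. WT treated library D was the lowest of all 16 for 58 and the lowest of its group for 69. Depleted untreated library B was split, the lowest of its group for 28 genes and the highest for 25. Each library also has a GC slope, which is the slope of log2 CPM, centred per gene, on the GC content of gene spans, fitted over genes that averaged 1 CPM or more and given for a step of 10 percentage points. The slope was -0.460 in WT treated library D and -0.720 in depleted untreated library B, the lowest of the 16, and between -0.246 and 0.321 in the other libraries. Its part in the results was not tested beyond a fit that held it as a covariate.

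**Figure D2:**
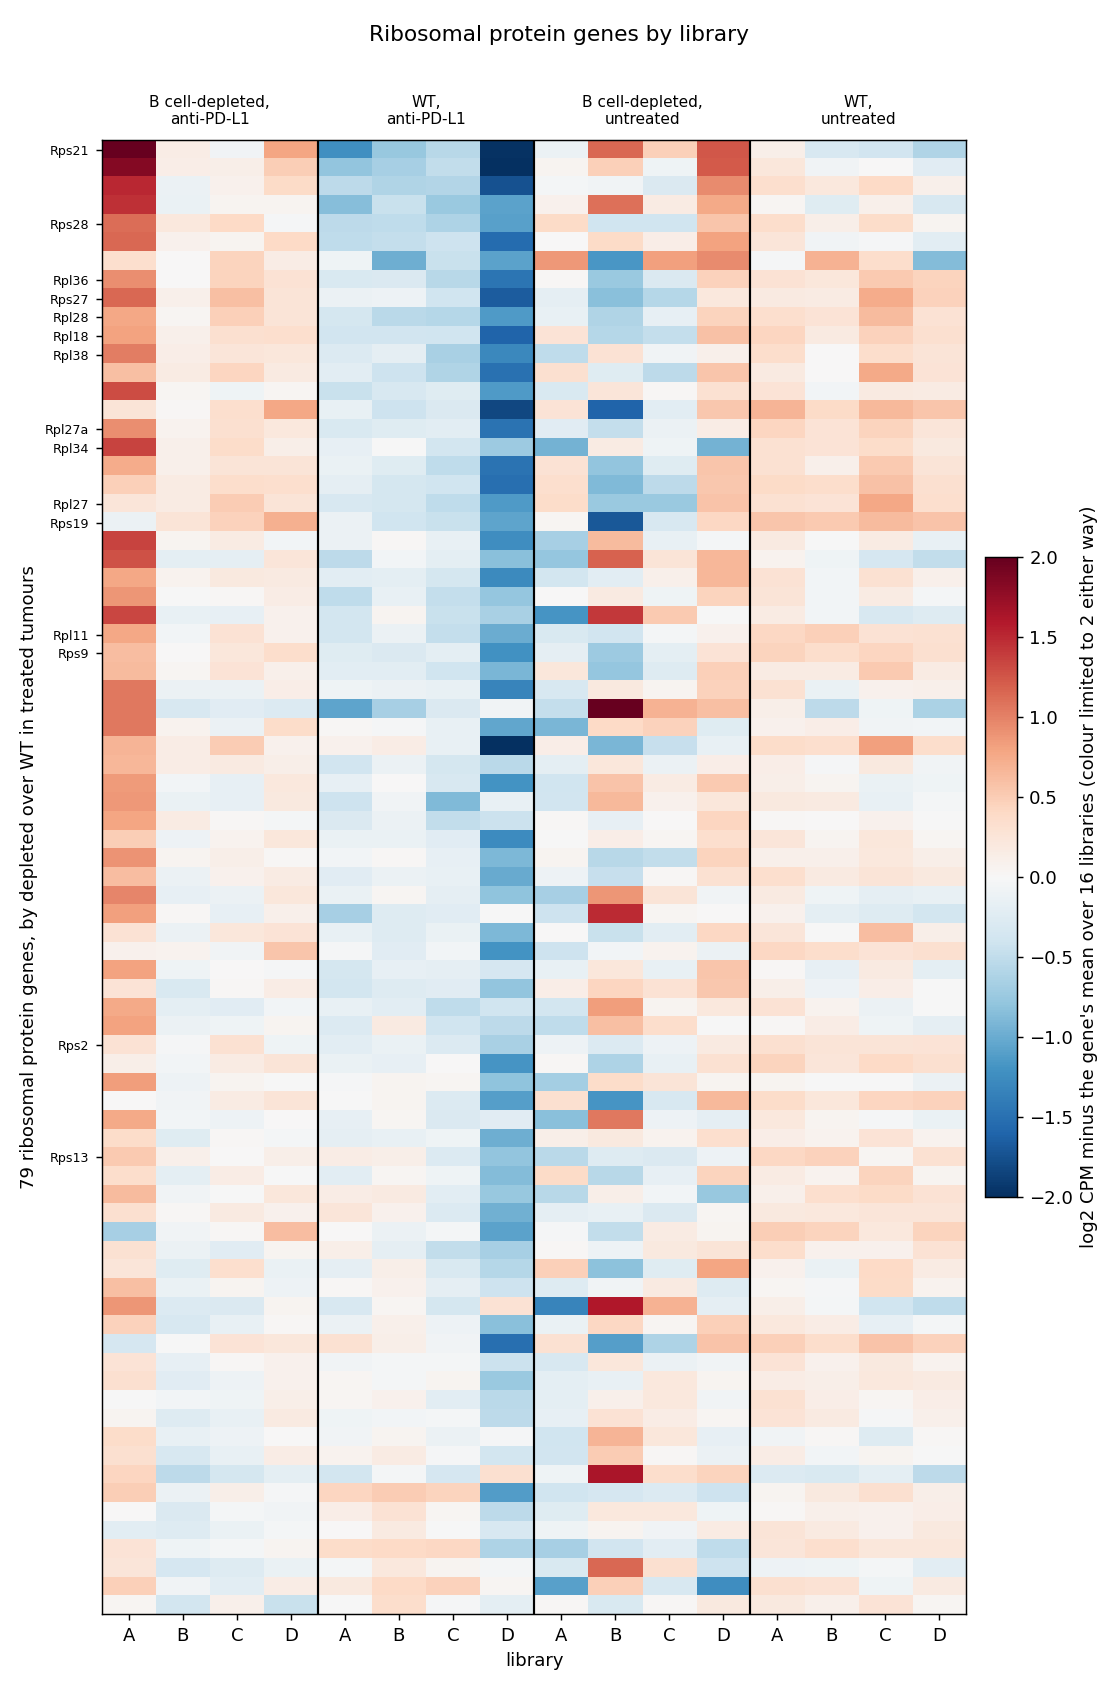
Heat map of the 79 tested ribosomal protein genes (rows) in the 16 libraries (columns, in 4 groups). Colour is log2 CPM minus the mean of that gene over all 16 libraries, red above and blue below, rows run from the largest to the smallest log2 change of depleted against WT treated tumours, and genes called in any contrast are named. The columns of depleted treated library A and WT treated library D stand out, as the highest of 16 for 42 genes and the lowest of 16 for 58 genes.

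Compared per kilobase of gene span, since the counts were read as including introns, levels differed widely among these genes. Rpl8, a protein close to the catalytic centre of the large subunit, had the highest mean level with 947 CPM per kb over the 16 libraries. It was followed by Rpl41, the shortest ribosomal protein, at 558 CPM per kb, by the stalk protein gene Rplp1 at 432, by Rpl4 at 351 and by Rps15 at 340 CPM per kb. The lowest were the large subunit gene Rpl24 at 1.91 CPM per kb and 3 paralogues. Rpl24 was low per kb for its long span, of which the 1669 bases shared with Pcnp are 3.91%, and not for few counts. Its log2 CPM lay between 5.93 and 7.01 over the 16 libraries, against -2.85 to -0.756 for Rpl3l. Rpl3l, the form of Rpl3 made in striated muscle, was at 0.0323, Rpl39l, most abundant in testis, was at 0.0253, and Rpl10l, the testis form of Rpl10, had 2 counts in all 16 libraries together. Rps28, with most of its span inside Kank3, stood at 3.18 CPM per kb. Rps21 ranked 28th of the 81, with 62.5 CPM per kb. Its span of 1069 bases lies on chromosome 2 (180257377 to 180258445, plus strand, build mm10). The microRNA gene Mir3091 lies wholly within that span on the same strand and covers 76 bases, or 7.11%, of it. Mir3091 had 668 counts against 26010 for Rps21.

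In anti-PD-L1-treated tumours, Rps21 was 4.06-fold higher in depleted than in WT mice, and 2 other members, Rpl28 of the large subunit and Rps28 of the small subunit, rose too. Rps21 was at 221, 59.0, 50.7 and 92.2 CPM in depleted treated libraries A to D, against 22.7, 31.5, 36.1 and 13.4 CPM in WT treated libraries A to D. The groups did not overlap, although depleted treated library A was far above the other 3. The log2 change was 2.02 ± 0.42 (SE, adjusted p = 0.0428 in the quasi-likelihood test of edgeR over all genes). Rpl28 was at 117, 70.1, 95.9 and 82.3 CPM in depleted treated libraries A to D, against 53.4, 47.1, 46.3 and 31.2 CPM in WT treated libraries A to D, again without overlap, a log2 change of 1.03 ± 0.21 (edgeR adjusted p = 0.0428). Rps28 was at 35.8, 19.2, 21.8 and 16.1 CPM in depleted treated libraries A to D, against 11.4, 11.6, 10.7 and 7.69 CPM in WT treated libraries A to D. All 4 depleted libraries were above all 4 WT libraries, and the log2 change was 1.16 ± 0.25 (edgeR adjusted p = 0.0468), with the caveat on Kank3 above.

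These 3 calls made up 3.80% of the 79 members, beside 0.698% of all 19340 genes called in this comparison (135 genes). The members as a list leaned the same way: 71 of 79 had a positive log2 change and the median was 0.55, beside a median of 0.03 over all genes tested. The libraries of the groups did not overlap for 34 members, beside 21.8% of all genes. All 34 were higher in depleted tumours, while over all genes 1938 were higher and 2286 lower. The median was 0.48 over the 32 small subunit genes, 0.63 over the 44 large subunit genes tested and 0.33 over the 3 stalk genes.

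After Rps21, the largest changes in treated tumours were of genes that did not pass the threshold. Rps29, a zinc-binding protein of the small subunit, was at 130, 39.5, 39.4 and 50.9 CPM in depleted treated libraries A to D, against 20.8, 22.8, 25.6 and 7.58 CPM in WT treated libraries A to D. The groups did not overlap, the log2 change was 1.75 ± 0.40, and the adjusted p of edgeR was 0.0524. Rps26, which in the yeast ribosome touches the message upstream of the start codon, had a log2 change of 1.40 ± 0.34 (edgeR adjusted p = 0.0555). At the other end stood Rps14 of the small subunit with -0.19, Rpl35a with -0.17 and the X-linked Rps4x with -0.15 (edgeR adjusted p from 0.426 to 0.718). Rpsa, which also serves as a laminin receptor precursor, averaged 715 ± 119 CPM in depleted treated tumours and 524 ± 86.7 CPM in WT treated tumours (SD, n = 4 each, edgeR adjusted p = 0.107).

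The calls in treated tumours rested on few libraries. Without depleted treated library A the log2 change of Rps21 was 1.38 (edgeR adjusted p = 0.106) and no member was called, beside 0.0612% of all genes. The adjusted p of Rps21 stayed under the threshold when depleted treated library C or depleted untreated library A, B or D was left out, and lay between 0.0506 and 0.12 when any of the other 12 was. Rpl28 kept its call without depleted untreated library A, B or D alone, and so did Rps28. Depleted untreated library B is not in this comparison but shares its filter, TMM factors and estimate of spread. Without it, 31 members were called, or 39.2%, beside 18.6% of all genes. DESeq2 on all libraries called 26, or 32.9%, beside 7.72% of all genes. With depleted treated library A, WT treated library D and depleted untreated library B all left out, 60 of 79 members were positive, the median was 0.17 beside -0.02 over all genes, and 12 members were called, or 15.2%, 10 of them higher, beside 9.75% of all genes. Rps21 then stood at 1.12 (edgeR adjusted p = 0.0543), while Rpl28 stood at 0.71 (edgeR adjusted p = 0.0175).

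Measures of the libraries moved with this comparison. The GC slope averaged 0.109 ± 0.123 in depleted treated and -0.243 ± 0.158 in WT treated libraries (SD, n = 4 each), and with it as a covariate the median of the members was 0.48 and the only member called was Rps27l, a paralogue of Rps27 induced by p53, at 1.09 (edgeR adjusted p = 0.0169), beside 0.202% of all genes. Ribosomal protein pseudogenes took 1.70 ± 0.227% of counts in depleted treated and 1.52 ± 0.236% in WT treated libraries. The 7 melanocyte markers summed to 18050 to 19110 CPM in depleted treated and to 20180 to 22230 CPM in WT treated libraries, without overlap, and the 6 T cell markers to 4.002 to 5.37 CPM in depleted treated and 2.67 to 3.89 CPM in WT treated libraries, also without overlap. The 3 erythroid markers read summed to 146 to 756 CPM in depleted treated and 62.1 to 189 CPM in WT treated libraries, and the 6 fibroblast markers to 87.3 to 414 CPM in depleted treated and 95.7 to 186 CPM in WT treated libraries. The part of tissue makeup in these changes was not tested.

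**Figure D3:**
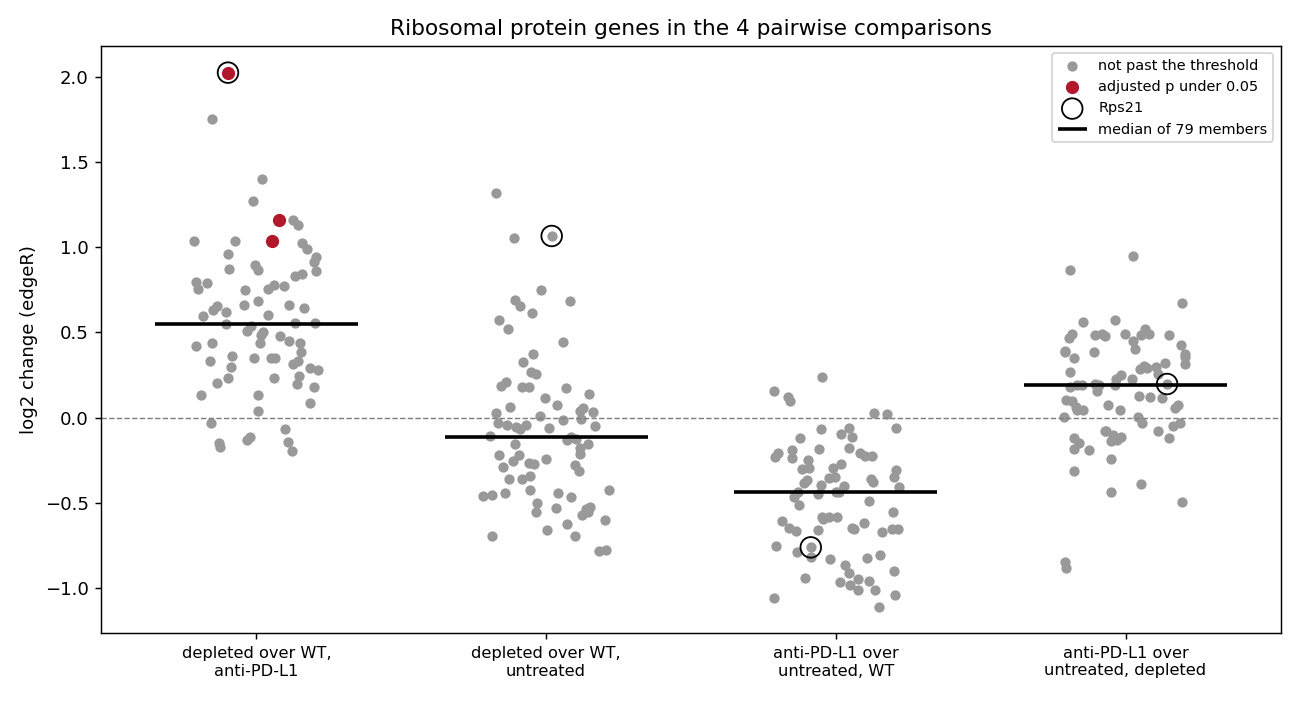
Log2 change (edgeR) of each of the 79 tested ribosomal protein genes in the 4 pairwise comparisons. Points are genes, red where the adjusted p was under 0.05, circles mark Rps21 and lines are medians of the 79. The medians were 0.55, -0.11, -0.44 and 0.19 from left to right, and the 3 red points are Rps21, Rpl28 and Rps28.

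In untreated tumours, no ribosomal protein gene was called between depleted and WT mice, beside 0.889% of all genes (172 genes). Of the 79 members, 29 were positive and 50 negative, with a median of -0.11 beside 0.04 over all genes, and 19 (24.1%) had an unadjusted p under 0.05 in edgeR, beside 19.2% of all genes. DESeq2 called 4 members, beside 5.13% of all genes, and limma voom 0, beside 1.16%. The 3 erythroid markers summed to 29.7 to 104 CPM in depleted untreated and 118 to 1484 CPM in WT untreated libraries, without overlap, and their part was not tested. Both directions were present among the extremes. Rps21 was at 49.2, 118, 74.2 and 126 CPM in depleted untreated libraries A to D, against 57.5, 42.5, 40.6 and 35.1 CPM in WT untreated libraries A to D. Only depleted untreated library A fell within the WT range, and the log2 change of 1.07 ± 0.41 did not pass (edgeR adjusted p = 0.18).

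Rpl37a, a zinc finger protein of the large subunit, had the largest change, 1.32 ± 0.43 (edgeR adjusted p = 0.132), and this rested on depleted untreated library B. It was at 45.3, 283, 102 and 95.9 CPM in depleted untreated libraries A to D, against 68.0, 43.6, 59.0 and 40.3 CPM in WT untreated libraries A to D. The stalk gene Rplp1 was at 470, 1544, 634 and 682 CPM in depleted untreated libraries A to D, against 414, 404, 437 and 346 CPM in WT untreated libraries A to D. All 4 depleted libraries were above all 4 WT libraries, with a log2 change of 1.06 ± 0.30 (edgeR adjusted p = 0.0896). The other stalk genes, Rplp0 and Rplp2, changed by -0.11 ± 0.22 and 0.18 ± 0.23 (edgeR adjusted p = 0.805 and 0.687).

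The lowest changes in untreated tumours were -0.78 ± 0.33 for Rpl30 and -0.77 ± 0.30 for Rps19, the gene most often mutated in the human anaemia Diamond-Blackfan (edgeR adjusted p = 0.209 and 0.186). Rpl7 of the large subunit came closest to the threshold, with 144, 176, 198 and 162 CPM in depleted untreated libraries A to D, against 272, 289, 269 and 268 CPM in WT untreated libraries A to D. The groups were well apart and the change was -0.69 ± 0.18 (edgeR adjusted p = 0.0731). The groups did not overlap for 15 members, 13 of them lower in depleted tumours, beside 12.7% of all genes, with 828 higher and 1630 lower. Without WT treated library D, which is not in the comparison, 2 members were called, beside 1.84% of all genes. Without depleted treated library A, WT treated library D and depleted untreated library B together 8 were, 1 of them higher, or 10.1% beside 4.78% of all genes.

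Anti-PD-L1 in WT mice went with lower values of most ribosomal protein genes, although none was called. Of 79 members, 73 were negative, the median log2 change was -0.44 beside -0.01 over all genes, and 40 (50.6%) had an unadjusted p under 0.05 in edgeR, all of them lower. DESeq2 called 19, or 24.1%, beside 8.9% of all genes, and limma voom 0, beside 0.103%. Over all genes 1 was called, or 0.00517%, and 5112 (26.4%) had an unadjusted p under 0.05 in edgeR. The 5 endothelial markers summed to 66.9 to 86.7 CPM in WT treated and 49.2 to 64.5 CPM in WT untreated libraries, without overlap, and their part was not tested. Treated and untreated libraries did not overlap for 44 members, all lower in treated tumours, beside 31.2% of all genes, with 2854 higher and 3175 lower.

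The lowest members were Rpl41 with -1.11 ± 0.36, Rps26 with -1.06 ± 0.34 and Rps19 with -1.04 ± 0.31 (edgeR adjusted p from 0.0893 to 0.0983). Rpl41 was at 543, 448, 493 and 170 CPM in WT treated libraries A to D, against 962, 779, 944 and 879 CPM in WT untreated libraries A to D. The groups did not overlap, and WT treated library D was far below the other 3. Rps19 was at 109, 89.9, 87.4 and 57.0 CPM in WT treated libraries A to D, against 175, 170, 185 and 176 CPM in WT untreated libraries A to D, also without overlap. Rps21 changed by -0.76 ± 0.41 (edgeR adjusted p = 0.241). The few positive members were led by Rplp1 with 0.24, Rps4x with 0.16 and Rps27a, which is made fused to ubiquitin, with 0.12, all with edgeR adjusted p of 0.617 or more.

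Calls in WT mice depended on which libraries were in the fit. Without depleted untreated library B, which is not part of the comparison, 27 members were called, all lower, or 34.2%, beside 11.1% of all genes called lower. With the WT libraries fitted alone 36 of 78 were, or 46.2% beside 29.6% of all genes. Without WT treated library D the median was -0.34, and with all 3 libraries that stood apart left out it was -0.28 beside 0.04 over all genes, with 19 members called, 1 of them higher, beside 11.8% of all genes. Rpl28 was then at -0.82 (edgeR adjusted p = 0.00922). The GC slope averaged -0.243 ± 0.158 in WT treated and 0.188 ± 0.0481 in WT untreated libraries (SD, n = 4 each) and held as a covariate it left the median at -0.41 with 0 members and 0.0% of all genes called.

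Anti-PD-L1 in B cell-depleted mice moved no ribosomal protein gene past the threshold, beside 0.0672% of all genes (13 genes). The members had a median of 0.19 beside -0.01 over all genes, with 57 of 79 positive and 10 (12.7%) at an unadjusted p under 0.05 in edgeR, beside 10.4% of all genes. DESeq2 and limma voom called 0 members as well, beside 1.74% and 0.0414% of all genes. The 3 erythroid markers summed to 146 to 756 CPM in depleted treated and 29.7 to 104 CPM in depleted untreated libraries, without overlap, and their part was not tested. The libraries did not overlap for 3 members, all higher in treated tumours, beside 4.84% of all genes, with 504 higher and 432 lower. Rpl34 had the largest change, 0.95 ± 0.28 (edgeR adjusted p = 0.195), with 116, 49.3, 59.1 and 49.96 CPM in depleted treated libraries A to D, against 23.8, 51.6, 42.9 and 23.8 CPM in depleted untreated libraries A to D. Library B of the untreated group fell inside the treated range.

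Next stood Rps27 with 0.86 and Rpl30 with 0.67, and at the other end Rpl37a with -0.88, Rplp1 with -0.85 and the muscle paralogue Rpl3l with -0.49 (edgeR adjusted p from 0.299 to 0.721). Rpl3l had 116 counts in all 16 libraries, too few to compare closely. Rps21 changed by 0.20 ± 0.41 and by -0.45 without depleted treated library A. Without that library the median over the members was -0.03, so the sign of the list in depleted mice rested on it.

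The difference of differences, depleted over WT under treatment minus depleted over WT without it, was called for 14 members, all positive, which is 17.7% of the 79 beside 7.62% of all genes (1474 genes) and 22.1% of the 299 other protein-coding genes with a span under 2 kb and at least 10 CPM. The median over the members was 0.66 beside 0.00 over all genes, and 71 of 79 were positive. The 14 were Rps2, Rps9, Rps13, Rps19, Rps27 and Rps28 of the small subunit and Rpl11, Rpl18, Rpl27, Rpl27a, Rpl28, Rpl34, Rpl36 and Rpl38 of the large subunit. Their values ran from 0.78 ± 0.19 for Rps2 to 1.73 ± 0.44 for Rps27 (edgeR adjusted p from 0.0181 to 0.045). Rps2 and Rps9 lie where the message is decoded, Rpl11 binds Mdm2 when it is free of the ribosome, and Rpl38 is known in mice for its effect on translation of Hox messages.

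Each of the 14 showed the same order of group means: depleted treated above WT treated, and depleted untreated below WT untreated. Rps9 was at 786, 515, 602 and 655 CPM in depleted treated libraries A to D, against 433, 421, 449 and 222 CPM in WT treated libraries A to D. It was at 455, 311, 448 and 617 CPM in depleted untreated libraries A to D, against 699, 652, 694 and 639 CPM in WT untreated libraries A to D. The depleted libraries were all above the WT libraries under treatment and all below them without it. Rpl11 was at 147, 82.9, 105 and 91.2 CPM in depleted treated libraries A to D, against 67.0, 79.7, 61.9 and 43.3 CPM in WT treated libraries A to D, and at 69.8, 65.9, 83.5 and 91.8 CPM in depleted untreated libraries A to D, against 114, 120, 106 and 107 CPM in WT untreated libraries A to D. Its groups did not overlap in either pair, and the difference of differences was 1.28 ± 0.27 (edgeR adjusted p = 0.0184).

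Rps21 was not among the 14. Its difference of differences was 0.96 ± 0.58 (edgeR adjusted p = 0.263), and its B cell difference was positive both with and without treatment, unlike theirs. Rplp1 had the lowest value, -1.09 ± 0.42 (edgeR adjusted p = 0.0969), and next came Rpl37a with -0.66 and Rps4x with -0.59. The count of 14 moved with single libraries. It was 8, 9, 3 and 9 without depleted treated library A, B, C or D, 4 and 5 without WT treated library C or D, 5 and 29 without depleted untreated library C or D, and 2, 6, 2 and 4 without WT untreated library A, B, C or D, while the genes called over the whole table ran between 281 and 3890. Without the 3 libraries that stood apart 13 members were called, 9 of them among the 14, beside 7.47% of all genes, and the median was 0.23 beside -0.08 over all genes. With the GC slope as a covariate 2 were called, Rpl34 at 2.16 and Rpl35a at 1.38 (edgeR adjusted p = 0.0262 and 0.0204), beside 0.9% of all genes.

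**Figure D4:**
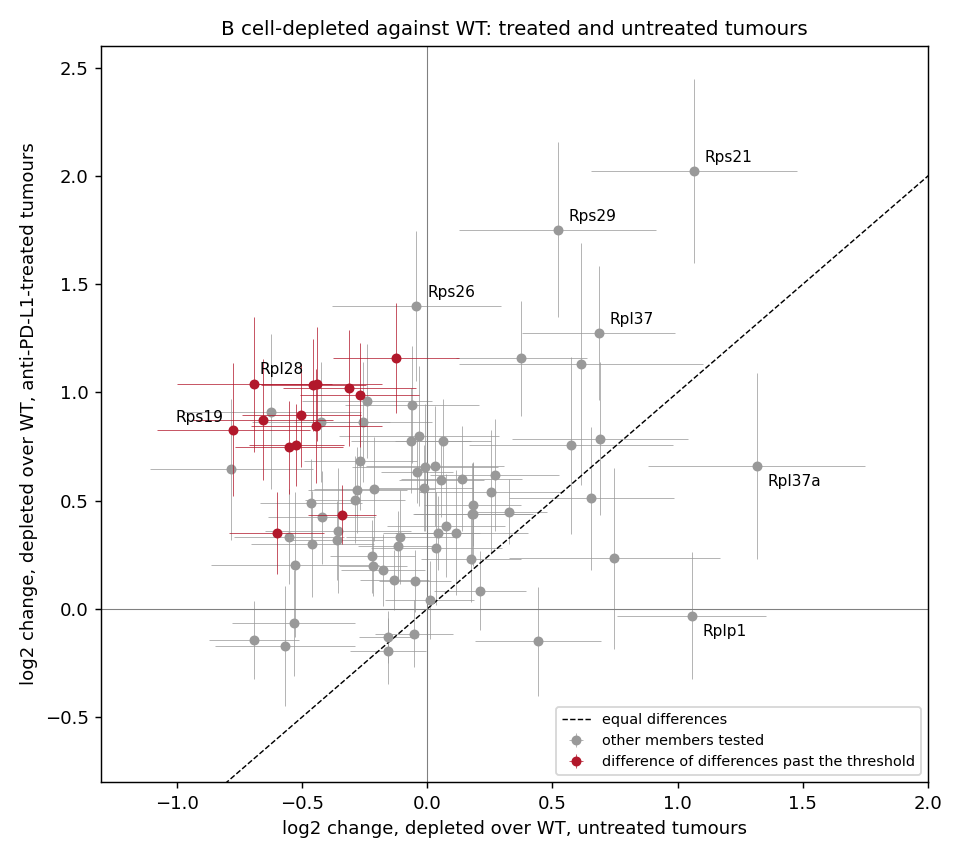
Log2 change of depleted over WT mice in treated tumours (vertical) against untreated tumours (horizontal) for the 79 tested ribosomal protein genes, with standard errors from edgeR. The 2 axes share no library, the dashed line marks equal differences, and red points are the 14 genes whose difference of differences passed. All 14 lie above the line and left of 0, while Rps21 is at 2.02 and 1.07.

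Set against the other members within each library, Rps21 lay further below their median in WT than in depleted tumours. The log2 CPM of Rps21 minus the median log2 CPM of the other tested members averaged -0.62 ± 0.69 in depleted treated tumours, against -2.06 ± 0.47 in WT treated tumours, and -0.60 ± 0.47 in depleted untreated tumours, against -1.68 ± 0.21 in WT untreated tumours (SD, n = 4 each). The difference between depleted and WT tumours in this measure was 1.45 with treatment and 1.09 without it, and it lay between 1.14 and 1.67 with treatment when any 1 library was left out. Rps21 took 0.494 ± 0.281% of all ribosomal protein counts in depleted treated tumours, against 0.163 ± 0.0425% in WT treated tumours. Since Rps21 was singled out with its values known, these are descriptions without a test.

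Over the 16 libraries, the genes most like Rps21 by Pearson's r of log2 CPM included Gm14330 (r = 0.979, an antisense gene on chromosome 6 with a mean of 1.19 CPM), the pseudogene Gm8624 (0.960), the respiratory chain gene Ndufc1 (0.959) and Gpha2 (0.959). Among the members, r was 0.946 for Rps29 and 0.939 for Rpl37. Over the 78 other tested members r had a median of 0.545 and was lowest for Rps14, at -0.124. All these values share the same 16 libraries and their depth, and no test was made.

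Among the 79 members, those with fewer counts had larger changes in treated tumours (Spearman rho of the depleted over WT change with mean CPM = -0.423 across genes, which are not independent). In WT mice the change with anti-PD-L1 was lower for members of higher GC content (rho = -0.398 across the 79 genes). Span gave rho between -0.162 and 0.197 in the 5 contrasts.

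Other genes of translation were read from lists chosen with earlier results known. Fau encodes a ribosomal protein fused to a ubiquitin-like protein, and its symbol is outside the rule. Fau was at 131, 81.3, 104 and 108 CPM in depleted treated libraries A to D, against 79.4, 83.4, 63.5 and 40.1 CPM in WT treated libraries A to D, with depleted treated library B below WT treated library B.

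The 76 genes of the mitochondrial ribosome, which translates the messages of the mitochondrial genome, had medians of 0.15 for depleted over WT in treated tumours and -0.21 for anti-PD-L1 in WT mice. edgeR called none of them in a pairwise comparison, beside 0.00517% to 0.889% of all genes. In depleted against WT treated tumours 24 of the 76 had an unadjusted p under 0.05 in edgeR, a larger share than the 25.0% of all genes. In untreated tumours 15 of the 76 did, close to the 19.2% of all genes. For anti-PD-L1 in WT mice 26 of the 76 did, a larger share than the 26.4% of all genes. In depleted mice 7 of the 76 did, close to the 10.4% of all genes. In the difference of differences 10 were called, or 13.2% beside the 7.62% of all genes, 7 positive, led by Mrps21 with 1.69 ± 0.37 and Mrps26 with 1.52 ± 0.35 (edgeR adjusted p = 0.0208 and 0.0244), and 3 negative, Mrps9, Mrpl44 and Mrpl24. Of 12 elongation factor genes 2 were called there (16.7%), Eif5a at 0.85 and Eef1b2 at 0.75. Of 33 initiation genes 4 were called there (12.1%). They were Eif4ebp1, a repressor of cap-dependent initiation, at 1.32, Eif3h at 1.18, Eif6 at 1.15 and Eif5b, which joins the subunits, at -0.87. Of 63 ribosome assembly genes 6 were, a share of 9.52% close to that of all genes, with the nucleolar methyltransferase gene Fbl at 1.63, Rrp9 at 1.01, Imp3 and Nhp2 both at 0.86, Bop1 at 0.73 and Utp14a at -1.02. Of 17 growth signal genes edgeR called none in any of the 5 contrasts, beside 0.00517% to 7.62% of all genes. An unadjusted p under 0.05 in edgeR was held by 5 of these 17 genes for depleted over WT with treatment and by 3 without it. It was held by 4 for anti-PD-L1 in WT mice, by 1 in depleted mice and by 5 in the difference of differences. Over all genes the shares in the same order were 25.0%, 19.2%, 26.4%, 10.4% and 30.8%. None was called either among 6 host genes of small nucleolar RNAs, with 0 to 3 at such a p. Nor was any of 3 paralogues with symbols outside the rule, Rpl22l1, Rpl36al and Rpl7l1, with 0 to 1, beside the same shares of all genes.

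The direction seen in the ribosomal protein genes was also present in other short genes. Among protein-coding genes that are not members and averaged at least 10 CPM, those with a span under 2 kb (299 genes) had a median log2 change of 0.30 for depleted over WT in treated tumours, -0.21 for depleted over WT in untreated tumours, -0.44 for anti-PD-L1 in WT mice and 0.09 for anti-PD-L1 in depleted mice. Those of 20 kb or more (5538 genes) had -0.13, 0.05, 0.14 and -0.04 for the same contrasts. In between, the 679 genes of 2 to 5 kb had 0.24 and the 3023 genes of 5 to 20 kb had 0.08 for depleted over WT in treated tumours. The members had 0.55, -0.11, -0.44 and 0.19. In the difference of differences the median was 0.54 under 2 kb, 0.41 from 2 to 5 kb, 0.17 from 5 to 20 kb and -0.18 at 20 kb or more, with 22.1%, 16.2%, 9.33% and 6.01% of the genes called, beside 0.66 and 17.7% for the members. Whether the ribosomal protein genes moved beyond other genes of their length was not tested.

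**Figure D5:**
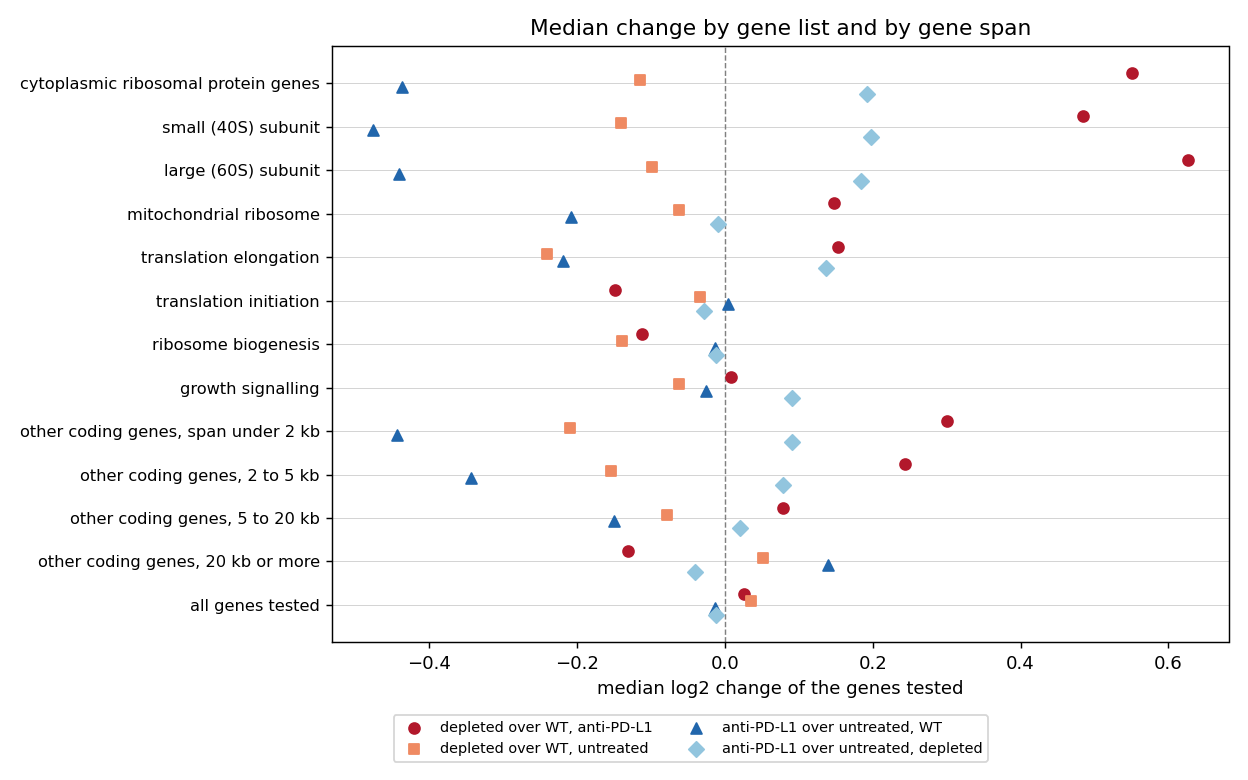
Median log2 change in the 4 pairwise comparisons (marker shapes) for the ribosomal protein genes and their subunits, other lists of translation and growth genes, and other protein-coding genes in 4 classes of span. Genes under 2 kb that are not members had medians of 0.30 and -0.44 where the members had 0.55 and -0.44.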

How the data were processed

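The authors deposited read counts for each gene of 16 libraries on build mm10, from total RNA freed of ribosomal RNA and made into libraries with an Ion Total RNA-Seq kit. Neither aligner, counter nor annotation is given in the sources used here, and the listed length equalled the gene span in all 38087 genes. The same deposited table gives the percent GC of every gene span. A second deposited table holds log2 values normalized by the authors with DESeq (no version given), used as an alternative, from which 13 genes with damaged cells were left out. A further 32 per-library columns were not used here, nor were the columns of the authors' own comparisons, which hold log2 fold changes, ratios and p-values.

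Because counts were deposited, the moderated test named in the study's methods was replaced by edgeR 4.0.16 (quasi-likelihood F test) in R 4.3.3, two-sided, with TMM factors, filterByExpr over the 4 groups, all 16 libraries in 1 fit and Benjamini-Hochberg adjustment over 19340 genes. A gene is called at an adjusted p under 0.05. Errors of log2 changes are SE, CPM are TMM-scaled, and a prior count of 2 was added for log2 CPM. Alternatives used limma 3.58.1, DESeq2 1.42.0, other factors and filters, the GC slope as a covariate and libraries left out.

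Columns carry letters that the labels do not, so a library is known by group only. The labels give separate tumours, and p-values measure the spread between these. All 81 members matched a RefSeq gene (80 by symbol, Rps3a by a synonym of Rps3a1). The members, the lists and Rps21 were chosen with earlier results of these data known. Named were Rps21, members called in any contrast, the 3 highest and 3 lowest changes per contrast, the 5 highest and 5 lowest levels per kb, the stalk genes, Rpsa and paralogues, the genes most like Rps21, and called genes of the other lists; any other gene was chosen after its values were seen. Some genes that this rule names are not reported here.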

Additional observations from a re-analysis of the deposited data

Results flagged for a closer look

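Samples far from the rest of their group were looked for in 116 groups of 4, over the ribosomal protein share and named members, and 16 were found by Dixon's criterion at 95%. Chance flags about 1 in 20 groups, and these 16 are not independent since the same libraries recur. WT treated library D was low in 6 of them. Its ribosomal protein share was 1.15%, against 1.70% to 1.78% in the other 3 libraries. It had 31.8 CPM of Rpl18, against 72.9 to 73.8 CPM in the others, and 75.3 CPM of Rpl27a, against 171 to 182. It had 151 CPM of Rpl7, against 295 to 307, and 33.0 CPM of Rps26, against 73.5 to 76.9, and 222 CPM of Rps9, against 421 to 449.

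Depleted treated library A was high in 5. It had 116 CPM of Rpl34, against 49.3 to 59.1 CPM in the other 3 libraries, 130 CPM of Rpl37a, against 50.2 to 53.6, and 46.9 CPM of Rpl38, against 25.5 to 27.3. It had 26.6 CPM of Rps13, against 18.6 to 19.96, and 129.8 CPM of Rps29, against 39.4 to 50.9. WT untreated library C was high in 3, with 98.4 CPM of Rpl27, against 69.3 to 72.7, with 106 CPM of Rpl28, against 82.5 to 86.2, and with 94.3 CPM of Rpl30, against 67.8 to 69.1. In depleted untreated tumours, library D had 213.8 CPM of Rps26, against 91.3 to 108, and library B had 0.0638 CPM of Rpl3l, against 0.470 to 0.518.

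The B cell difference was tested for a difference between treated and untreated tumours, and passed in edgeR for 14 members, with the treated minus untreated value on the log2 scale as follows. It was 0.78 for Rps2, 0.95 for Rps13, 1.26 for Rpl38, 1.28 for Rpl11, 1.28 for Rps28, 1.29 for Rpl27 and 1.30 for Rps9. It was 1.33 for Rpl18, 1.40 for Rpl27a, 1.48 for Rpl36, 1.49 for Rpl28, 1.53 for Rpl34, 1.60 for Rps19 and 1.73 for Rps27. Adjusted p of edgeR ran from 0.0181 to 0.045.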

How the results depend on the processing

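Results are given for depleted against WT treated, depleted against WT untreated, treated against untreated WT, treated against untreated depleted tumours and the difference of differences, in this order. Genes called were 135, 172, 1, 13 and 1474, and members called 3, 0, 0, 0 and 14. With the GC slope held as covariate the genes called were 39, 813, 0, 189 and 174 and members 1, 4, 0, 2 and 2. With DESeq2 they were 1493, 993, 1721, 336 and 3242, and members 26, 4, 19, 0 and 27. In fits of only the groups compared they were 2638, 0, 5441 and 0 for the first 4, and members 25, 0, 36 and 0. The authors' log2 values gave 18, 43, 0, 7 and 149, with 0 members called in any. Without a filter on low counts genes called were 84, 121, 4, 22 and 945 and members 2, 0, 0, 0 and 10, with limma voom 72, 225, 20, 8 and 1511 and members 1, 0, 0, 0 and 19, and with library totals alone 205, 133, 5, 16 and 1656 and members 6, 0, 0, 0 and 12.

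Leaving out 1 library moved genes called between 0 and 3656, 22 and 362, 0 and 4123, 0 and 70, and 281 and 3890, and members called between 0 and 31, 0 and 2, 0 and 27, 0 and 0, and 2 and 29. Chosen after seeing the data, leaving out depleted treated library A, WT treated library D and depleted untreated library B together gave 1895, 930, 2290, 60 and 1451 genes, 12, 8, 19, 0 and 13 members, and medians of 0.17 in the first and 0.23 in the last contrast, against 0.55 and 0.66. The cause of these moves was not tested.

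Rps21 in treated tumours was 1.99 without the filter (edgeR adjusted p = 0.0783), 2.16 with the GC slope (0.0874), 1.83 with limma voom (0.0542), 1.96 in the authors' values (0.134), 1.12 without the 3 libraries (0.0543), and between 1.38 and 2.25 with 1 library left out. In depleted mice Rps21 ran between -0.45 and 0.43 with 1 library left out, and was -0.34 without the 3. With the GC slope other signs turned, none past the threshold. Rpl35a was at 0.31 and Rps4x at 0.29 for depleted against WT treated tumours, Rplp1 at -0.39, Rps27a at -0.82 and Rps4x at -0.40 for treated against untreated WT tumours, and Rpl37a at 0.80 and Rps4x at 0.31 in the difference of differences. With 1 library left out Rps27a ran between -0.0144 and 0.24 in WT mice, and Rpl37a between -1.11 and 0.0306 in the difference of differences.

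The ribosomal protein share was 2.34% in depleted treated and 1.84% in WT treated tumours, and 2.28% for depleted and 2.32% for WT mice left untreated, with protein-coding counts as the total, and without the most abundant member 1.81% in depleted treated and 1.39% in WT treated tumours, and 1.73% for depleted and 1.77% for WT mice left untreated. No paired analysis was possible because the columns carry letters and no replicate numbers. Rpl10l and Rpl39l, with 2 and 47 counts in all, were too low to test.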
